A study of Mus musculus with 12 samples.

Results

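Skin-derived precursors (SKPs) were grown as spheres from wounded mouse skin after alprostadil or after vehicle, and their gene expression was compared on arrays. SKPs are dermal cells that divide as floating spheres in FGF2 and EGF and act as precursors of dermal mesenchyme. The comparison took the 3 wound alprostadil arrays and the 3 wound vehicle arrays of a set of 12, chosen by the sample titles. The other 6 arrays, 3 of wound trimebutine (wounded skin, trimebutine maleate) and 3 of uninjured vehicle (intact skin, vehicle), served to estimate the spread and to set levels in context. All 4 groups came from mice of 9 months, of a strain the labels give as CD57/Bl6, with no transgene named. All cells were plated at 50000 per ml in medium with FGF2 (40 ng/ml), EGF (20 ng/ml) and B27 (2%), and secondary spheres were used. The series text speaks of treated mice and the titles of treated skin. Neither names the dose, route or time of alprostadil, the wound site or the sex of the mice. The labels call the arrays biological replicates and the series text calls them independent isolates, so the errors below are the spread between isolates.

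Alprostadil is prostaglandin E1. It binds the EP receptors for prostaglandin E2 and the IP receptor for prostacyclin. EP2, EP4 and IP couple to Gs, raise cyclic AMP and activate protein kinase A, which phosphorylates the transcription factor CREB, while EP3 lowers cyclic AMP and EP1 and the FP and TP receptors raise calcium. In fibroblasts, cyclic AMP is known to oppose contractile and collagen genes and to induce early genes such as those of the Nr4a family. The question put to the arrays was which genes of sphere-forming dermal cells differ after alprostadil given to wounded skin.

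Every array carried the genes of dermal fibroblasts. Fn1, the fibronectin gene, lay between 13.82 and 13.94 on the log2 scale on the 6 wound arrays. Pdgfra, the receptor that marks dermal mesenchyme, read 11.19, 11.43 and 12.52 on the alprostadil arrays (replicates 1, 2 and 3) and 11.51, 11.49 and 12.32 on the vehicle arrays. Of 24 fibroblast markers on the array, 20 to 22 lay above the array median on each of these 6 arrays. Lymphocyte and neutrophil markers were mostly dim: of 13 T, B and NK cell markers 0 to 2 lay above the median on any wound array. Of 12 neutrophil markers 2 or 3 did. Some other lists were less dim. On these 6 arrays 6 of 10 melanocyte markers and 6 to 9 of 10 tendon markers lay above it. So did 8 to 11 of 15 Schwann cell and neuron markers and 6 to 8 of 16 keratinocyte markers. Array medians ran from 6.57 to 6.74 over the 12 arrays, and the lowest belonged to wound alprostadil replicate 1.

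That array also stood apart by its macrophage genes. Of 31 macrophage markers, 30 lay above the array median on wound alprostadil replicate 1, against 8 and 17 on alprostadil replicates 2 and 3 and 18, 23 and 18 on the vehicle arrays. The mean level of these markers was 10.49 on that array, 6.83 and 7.29 on the other alprostadil arrays, and 7.42, 7.78 and 7.35 on the vehicle arrays. In all, 137 genes (1.04% of those tested) lay more than 1 log2 unit above the other 11 arrays on alprostadil replicate 1, and no other array had more than 7 such genes. Where leaving it out turned the sign of a single gene's printed difference or moved it by more than 1.5 times, the difference without it, or its direction, is given as well.

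No gene passed the test between wound alprostadil and wound vehicle. Of 13153 genes tested in limma, 0 (0.0%) had an adjusted p under 0.05, and the smallest adjusted p was 0.998. An unadjusted p under 0.05 was found for 362 genes (2.75%), of which 141 (1.07%) were higher and 221 (1.68%) lower after alprostadil. The count of 362 became 189 (1.44%) without alprostadil replicate 1, 879 without alprostadil replicate 2, 641 without alprostadil replicate 3 and 714 without vehicle replicate 3. With arrays centred on their medians, 193 were higher and 68 lower, and the median of all genes moved to 0.09. The groups did not overlap at 776 genes (5.9%), 366 (2.78%) higher and 410 (3.12%) lower. With the replicate number as a block the calls at the adjusted threshold remained 0 in number, and 221 genes were higher and 233 lower at the unadjusted threshold.

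The differences themselves were small. Their median was 0.03 on the log2 scale (where 1 is a doubling), 59.4% of genes lay above 0, and the span between the 5% and 95% quantiles was -0.23 to 0.36. The median standard error was 0.14. For 11930 genes (90.7%) the 95% interval of the difference stayed within 1 log2 unit of 0, and for 64.3% it stayed within 0.5. For the remaining 1223 genes the interval reached past a change of 1 log2 unit in at least 1 direction.

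**Figure D1:**
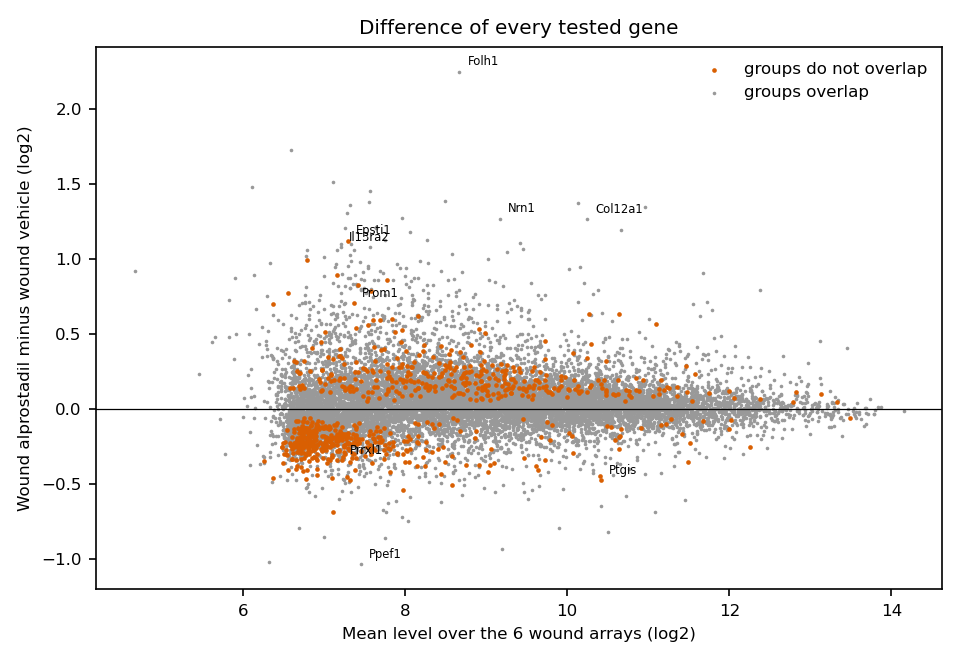
Each of 13153 tested genes is a point, with its mean level over the 6 wound arrays (log2) on the horizontal axis and the difference of wound alprostadil minus wound vehicle (log2) on the vertical axis. The 776 genes whose groups do not overlap are orange, and 1 of them, Epsti1, is among the 39 genes past 1 in size. The other 38, Folh1 at the top and Ppef1 at the bottom among them, have overlapping groups (grey).

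A difference of more than 1 log2 unit was seen at 39 genes, 37 higher and 2 lower after alprostadil. Without alprostadil replicate 1, 10 of them stayed past 1 in the same direction and 12 changed sign. Only 1 of the 39, Epsti1, had groups without overlap, and 4 had an unadjusted p under 0.05: Epsti1, Folh1, Nrn1 and Il13ra2. All of these but Epsti1 are named here after their values were seen. Folh1, which encodes a glutamate carboxypeptidase of the cell surface, read 11.20, 7.51 and 10.67 on the alprostadil arrays and 6.29, 7.16 and 9.19 on the vehicle arrays. Alprostadil replicates 1 and 3 were above every vehicle array and replicate 2 lay among them. Its difference was 2.25 (SE 0.97, 95% interval 0.09 to 4.41, adjusted p 0.998). Nrn1, encoding the GPI-anchored neurite protein neuritin, averaged 9.80 ± 0.80 after alprostadil and 8.53 ± 0.58 after vehicle (SD, n = 3 each). Il13ra2, the decoy receptor for interleukin 13, averaged 7.74 ± 0.97 after alprostadil and 6.66 ± 0.38 after vehicle. The 2 lower genes, Ppef1 and Mir300, differed by -1.04 and -1.03 with standard errors of 1.08 and 1.21. The Mir300 difference was 0.07 without alprostadil replicate 1, and it too was chosen after its values were seen.

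Epsti1, an interferon-induced gene, had the largest difference among the genes higher without overlap. It read 8.36, 6.91 and 8.29 on the alprostadil arrays and 6.63, 6.72 and 6.85 on the vehicle arrays. All vehicle arrays lay close together and below every alprostadil array, but alprostadil replicate 2 was only just above them. The difference was 1.12 (SE 0.31, 95% interval 0.43 to 1.82, adjusted p 0.998). Without alprostadil replicate 2 it was 1.59 with an adjusted p of 0.00517 in limma, the single call (0.0076% of genes) made by any of the alternative fits. Without alprostadil replicate 1 it was 0.87.

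Prom1 was even within each group. It encodes prominin 1 (CD133), a glycoprotein of membrane protrusions that is used as a marker of mouse dermal papilla cells. It read 7.82, 7.78 and 7.56 on the alprostadil arrays, against 7.15 on vehicle replicate 1 and less on the other 2 vehicle arrays (mean 7.02 ± 0.13, SD, n = 3). The gap between the groups was wider than the spread within either, and the difference was 0.71 (SE 0.18, 95% interval 0.30 to 1.11, adjusted p 0.998). It was 0.65 without alprostadil replicate 1.

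Csmd3, a large membrane protein with CUB and sushi domains, read 6.62, 6.78 and 7.40 on the alprostadil arrays, against 6.16, 6.03 and 6.31 on the vehicle arrays. The groups were separate, with a difference of 0.77 (SE 0.23). Mmp1b is a mouse homologue of interstitial collagenase. It read 6.49, 6.62 and 7.05 after alprostadil and 6.07, 6.36 and 5.63 after vehicle, a difference of 0.70 (SE 0.18). Both genes were dim: every vehicle value lay below the array medians, which ran from 6.57 to 6.74. Mmp1b also lay below its own array's median on alprostadil replicates 1 and 2. It entered the test through the uninjured vehicle arrays, where it read 7.83, 7.73 and 7.84. Mmp1b has a related neighbour, Mmp1a, and whether the Mmp1b probes also read that gene was not tested.

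The other higher genes had various roles. Prg4, encoding the lubricant proteoglycan lubricin, read 10.75, 11.23 and 10.89 after alprostadil and 10.09, 10.28 and 10.61 after vehicle. The gap between its groups was narrower than the spread within either, and the difference was 0.63 (SE 0.21). Slc7a2, a transporter of arginine and other cationic amino acids, read 11.64, 11.20 and 11.31 after alprostadil, against 10.64, 11.07 and 10.74 after vehicle. C4b, the complement component, read 10.95, 10.30 and 10.52 against 10.11 or less on every vehicle array. Abcb1b, the drug efflux pump, averaged 8.21 ± 0.66 after alprostadil and 7.35 ± 0.42 after vehicle (SD, n = 3 each), and Igfbp5, which binds insulin-like growth factors, averaged 8.47 ± 0.13 after alprostadil and 7.85 ± 0.34 after vehicle. Of these genes Abcb1b leaned most on alprostadil replicate 1, with a difference of 0.86 that was 0.48 without it.

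Nasp and Nudt7 had tight alprostadil groups. Nasp, a chaperone of histone H1 and H3, read 8.22, 8.17 and 8.22 after alprostadil and 7.97, 7.66 and 7.83 after vehicle. Nudt7, a peroxisomal enzyme that cleaves coenzyme A, read 8.11, 8.08 and 8.16 after alprostadil, against 7.93, 7.68 and 7.83 after vehicle. Both differences were small, 0.38 (SE 0.10) and 0.30 (SE 0.09). Arhgef6, an exchange factor for Rac and Cdc42, differed by 0.78 and Prss46, a serine protease gene, by 0.82. The Prss46 difference was 0.34 without alprostadil replicate 1. Fam217b, Htatsf1 and Tmem229b-ps, a pseudogene, differed by 0.51, 0.34 and 0.59.

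The genes at the low end were dim. Over the 410 genes that were lower without overlap the median level was 7.07, and 82.4% of them lay under a level of 8, against 8.69 and 30.9% of the 366 higher genes and 33.4% of all tested genes. Prrxl1, a homeobox gene of sensory neurons, had the smallest p of the lower genes. It read 6.94, 7.15 and 7.05 on the alprostadil arrays, against 7.40, 7.39 and 7.38 on the vehicle arrays. The vehicle arrays spanned 0.02 and all lay above the alprostadil arrays, and the difference was -0.34 (SE 0.07, adjusted p 0.998). Fam167b read 6.64 or less on every alprostadil array and 6.82 or more on every vehicle array, a difference of -0.42 (SE 0.09).

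The other lower genes named by rule had small differences. Kcnc4, a voltage-gated potassium channel, differed by -0.32, Trpm5, the cation channel of taste cells, by -0.34, and Kcnmb1, an accessory subunit of the BK potassium channel, by -0.46. Nkain4, which binds a subunit of the sodium pump, differed by -0.28, and Gpr17, a receptor of oligodendrocyte precursors, by -0.26. The neuropeptide gene Pth2, the zinc transporter gene Slc30a2, Vstm2l and the receptor gene Trhr2 differed by -0.34, -0.34, -0.30 and -0.46. Krtap9-1 and Krtap4-9, keratin-associated proteins of hair, differed by -0.27 and -0.48, and Krtap4-9 by -0.26 without alprostadil replicate 1. The brightest of these genes, Krtap9-1, averaged 7.93 after alprostadil and 8.20 after vehicle.

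Among brighter lower genes were Hmgb3 and Ptgis. Hmgb3, a chromatin protein, read 8.84, 8.99 and 8.60 after alprostadil, against 9.33, 9.17 and 9.21 after vehicle, and the groups were separate with a difference of -0.42 (SE 0.12). Ptgis encodes prostacyclin synthase. It read 9.87, 10.61 and 10.05 on the alprostadil arrays, against 10.67, 10.61 and 10.67 on the vehicle arrays. Replicate 2 of both groups was nearly equal, while the other alprostadil arrays were lower, and the difference was -0.48 (SE 0.44). Gata6os, which is transcribed beside Gata6, Zfp182, Tmem145 and Tmem51 differed by -0.54, -0.44, -0.41 and -0.40. The Gata6os difference was -0.36 without alprostadil replicate 1.

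**Figure D2:**
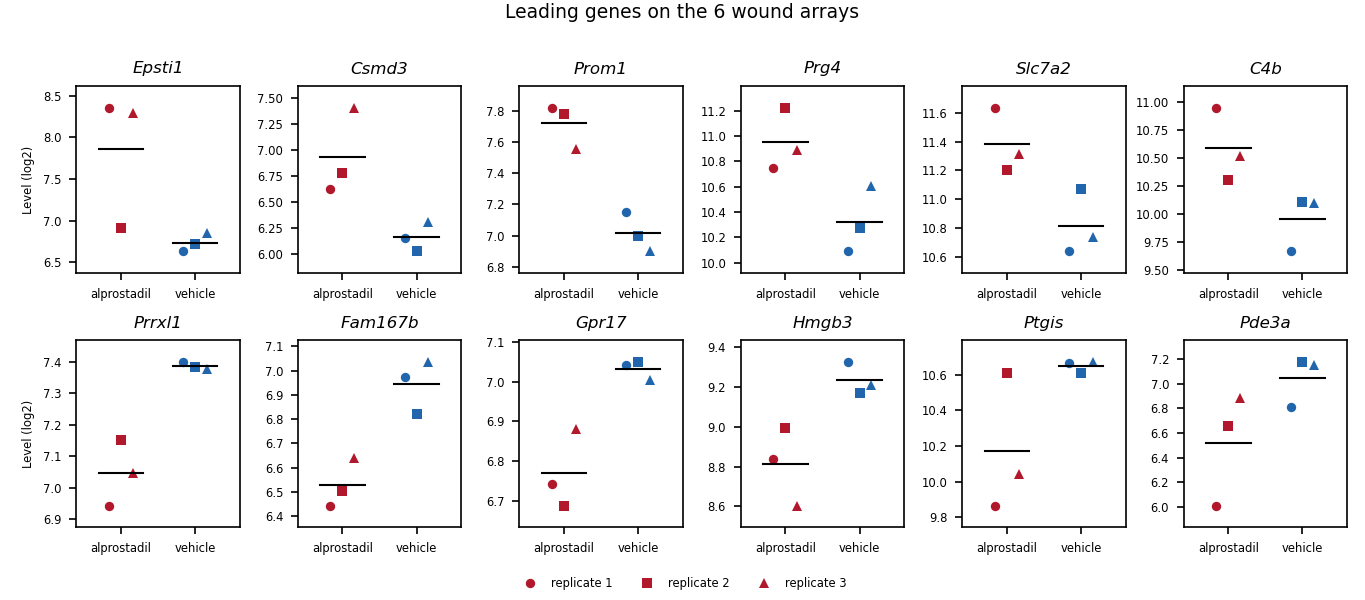
Points are arrays, with the log2 level on the vertical axis, wound alprostadil (red) left of wound vehicle (blue), 1 symbol shape for each replicate number and black bars at the group means. The upper row shows genes higher after alprostadil and the lower row genes lower after it. At all of them but Pde3a the 2 groups do not overlap, by a wide margin for Prom1 and Prrxl1 and by a narrow one for Epsti1 and Ptgis.

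No tested prostanoid receptor passed the test. Of 7 prostanoid receptors on the array 6 were tested, 0 were called and none had separate groups, where 5.9% of all genes had them. Ptger1 (EP1) was not among the 7, so it was not measured here. Ptger4 (EP4) read 8.48, 7.26 and 8.63 on the alprostadil arrays and 7.25, 6.91 and 8.53 on the vehicle arrays. Replicate 3 of both groups was high and replicate 2 of both was low, and the difference was 0.56 (SE 0.45). Ptger2 (EP2) read 8.16, 6.84 and 6.15 after alprostadil, against 7.40, 6.66 and 6.17 after vehicle. Here replicate 1 was high and replicate 3 low in both groups, the reverse of Ptger4 for replicate 3. The difference was 0.31 (SE 0.48) with all arrays and -0.25 without alprostadil replicate 1, so its sign turned.

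Ptgir (IP) followed the order of Ptger2. It read 9.37, 8.84 and 8.50 after alprostadil and 9.67, 9.13 and 8.44 after vehicle, a difference of -0.17 (SE 0.39) that was -0.41 without alprostadil replicate 1. Ptger3, the receptor that lowers cyclic AMP, differed by 0.04 (SE 0.20, 95% interval -0.40 to 0.49), and by 0.01 without that array. Ptgfr, the receptor for prostaglandin F2alpha, differed by 0.53 (SE 0.36), and Tbxa2r, the thromboxane receptor, by -0.18 (SE 0.18), or -0.05 without it. Ptgdr, the receptor for prostaglandin D2, was too dim to test, at 6.19 to 6.30 after alprostadil and 6.17 to 6.39 after vehicle. The median of the 6 tested receptors was 0.17, with -0.02 without alprostadil replicate 1 and 0.26 without vehicle replicate 1.

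Enzymes that make, move or break down prostanoids gave a median of 0.12, with 7 of 11 above 0 (59.4% of all genes were) and 0 called. The median was 0.00 without vehicle replicate 2 and 0.04 without alprostadil replicate 1. Ptgs2, the inducible cyclooxygenase, read 12.02, 11.40 and 10.98 after alprostadil and 12.06, 10.95 and 11.03 after vehicle. Replicate 1 was highest in both groups, and the difference was 0.12 (SE 0.41), or -0.16 without alprostadil replicate 1. Cbr1, a carbonyl reductase that acts on prostaglandin E2, read 9.85, 9.78 and 9.85 after alprostadil, against 9.60, 9.55 and 9.75 after vehicle. Its groups were separate by a narrow gap, with a difference of 0.19 (SE 0.12). Hpgds and Tbxas1, the synthases of prostaglandin D2 and thromboxane, read 8.82 and 8.13 on alprostadil replicate 1 and lay between 5.45 and 6.38 on the other 5 wound arrays, so they were not tested and are named after their values were seen. Both are also expressed by macrophages.

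Next in the pathway come the proteins that make and read cyclic AMP. Of 23 tested genes for G proteins, adenylyl cyclases, protein kinase A subunits and inhibitors, Epac exchange factors and CREB with its coactivators, 14 lay above 0, with a median of 0.02 and a range of -0.30 to 0.26. The 3 of smallest p were Adcy7, an adenylyl cyclase, Prkar1a, a regulatory subunit of protein kinase A, and Akap12, an anchor of that kinase. They differed by -0.23 (SE 0.17), -0.13 (SE 0.11) and -0.30 (SE 0.27), and their groups overlapped. Adcy7 differed by -0.10 and Prkar1a by -0.07 without alprostadil replicate 1.

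Phosphodiesterases break down cyclic AMP, and several are induced by it. Of 12 tested, 9 lay above 0, with a median of 0.11 and 0 called. The median was -0.02 without vehicle replicate 2 and 0.22 without vehicle replicate 3. Pde3a, a cyclic GMP-inhibited phosphodiesterase, had the only unadjusted p under 0.05 of the 12 (2.75% of all genes had one). It read 6.01, 6.65 and 6.88 after alprostadil and 6.81, 7.18 and 7.15 after vehicle. Alprostadil replicate 3 lay above vehicle replicate 1, so the groups overlapped, and the difference was -0.53 (SE 0.21) and -0.28 without alprostadil replicate 1. Pde1b, a calcium and calmodulin-dependent enzyme, read 7.41, 6.74 and 7.18 after alprostadil, against 6.62, 6.32 and 7.07 after vehicle, a difference of 0.44 (SE 0.20) that was 0.29 without alprostadil replicate 1. Pde4b and Pde4d, which CREB is known to induce, differed by 0.10 (SE 0.21) and 0.06 (SE 0.20), and without that array by -0.08 and 0.16. For Pde4d the 95% interval of -0.40 to 0.51 left out a doubling.

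CREB target genes were described with their promoters, since the palindrome TGACGTCA is the site to which CREB binds. RefSeq promoter windows (GRCm38.p6, 250 bases before to 50 after a gene's start) were at hand for 22 of the 29 target genes on the array, as 30 windows. The palindrome stood in 2 of these 30 windows (6.67%), against 1.79% of all 32851 windows. The 2 genes were Btg2, an inhibitor of proliferation, and Dusp1, a phosphatase of MAP kinases. Shown 5′ to 3′ on the strand of the gene with the palindrome in capitals, they are chr1:134079258-134079377 (minus strand) and chr17:26508552-26508671 (minus strand).
Btg2: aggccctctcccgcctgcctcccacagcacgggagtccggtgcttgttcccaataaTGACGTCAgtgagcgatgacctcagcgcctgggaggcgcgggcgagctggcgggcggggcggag
Dusp1: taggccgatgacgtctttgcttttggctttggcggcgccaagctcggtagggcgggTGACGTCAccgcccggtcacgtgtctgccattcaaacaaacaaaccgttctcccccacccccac

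Neither gene with the palindrome had separate groups. Btg2 read 9.31, 8.09 and 9.13 on the alprostadil arrays, against 8.92, 8.39 and 8.27 on the vehicle arrays, a difference of 0.31 (SE 0.31). It was 0.08 without alprostadil replicate 1. Dusp1 read 10.14, 9.21 and 9.42 after alprostadil and 9.87, 9.44 and 9.06 after vehicle, a difference of 0.13 (SE 0.33) that was -0.14 without that array. Replicate 1 was the highest array in both groups for both genes.

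Over the whole list 17 of 26 tested targets lay above 0 (59.4% of all genes did), with a median of 0.13 and 0 called. The count was 9 of 26 (55.1% of all genes) and the median -0.03 without alprostadil replicate 1. Gem, a small GTPase, was the 1 target of 26 with separate groups, where 5.9% of all genes had them. It read 9.77, 9.64 and 9.66 after alprostadil, against 9.48, 9.27 and 9.57 after vehicle, with a difference of 0.25 (SE 0.13). Nr4a1, the nuclear receptor named in the background above, read 8.64, 8.29 and 8.95 after alprostadil, against 8.33 or less on every vehicle array (mean 8.21 ± 0.19, SD, n = 3). Only alprostadil replicate 2 lay within the range of the vehicle arrays, and the difference was 0.41 (SE 0.26, 95% interval -0.16 to 0.99). Its relative Nr4a2 differed by -0.12 (SE 0.20), and Nr4a3 was too dim to test.

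Other targets split in the same way. Has2, the hyaluronan synthase, differed by 0.52 (SE 0.42), Rgs2, an inhibitor of G protein signalling, by 0.35 (SE 0.30), and Fos and Fosb, subunits of the AP-1 factor, by 0.27 and 0.25. The Fos and Fosb differences were -0.04 and 0.02 without alprostadil replicate 1. For Rgs2 a second, dim probe set gave the other sign. Crem, whose short form is induced by cyclic AMP, was nearly level: it read 7.49, 7.42 and 7.33 after alprostadil, against 7.42, 7.42 and 7.31 after vehicle. The difference was 0.03 (SE 0.08, 95% interval -0.16 to 0.22), and -0.01 without alprostadil replicate 1. On the other side, Vegfa, the endothelial growth factor, read 11.64, 12.15 and 11.52 after alprostadil and 12.29, 12.15 and 11.85 after vehicle, a difference of -0.33 (SE 0.21). Sik1, Per1 and Junb differed by -0.11, -0.03 and -0.04, with -0.10 for Per1 and -0.02 for Junb without alprostadil replicate 1.

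**Figure D3:**
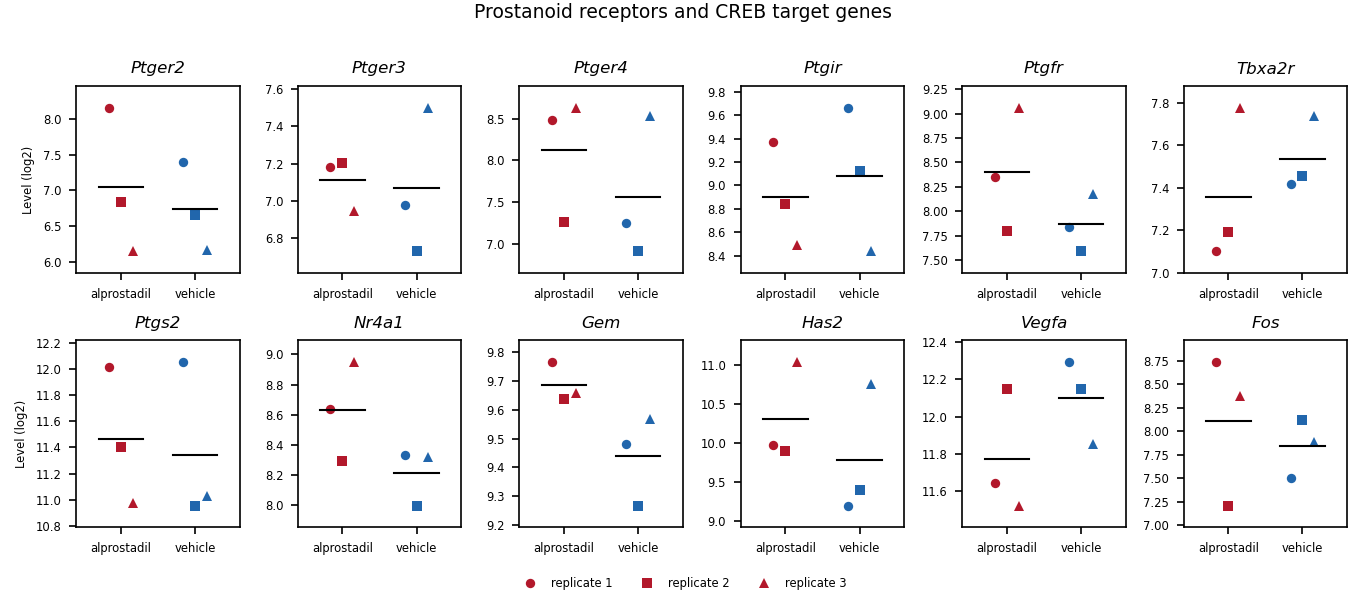
Log2 levels of 6 prostanoid receptors (upper row) and 6 CREB target genes (lower row) on the wound alprostadil (red, left) and wound vehicle (blue, right) arrays, with shapes for replicate numbers and bars for means. Of the 12 genes, only Gem has separate groups, and the replicates run in the same order in both groups for every receptor but Ptger3.

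Genes of dividing cells were higher on average and differed widely between isolates. All 30 tested mitosis genes lay above 0, where 59.4% of all genes did, with a median difference of 0.56. But 0 were called (0.0% of all genes were) and none had separate groups, where 5.9% of all genes had them. Without alprostadil replicate 1 the median was 0.09, without vehicle replicate 2 it was 0.25, and without alprostadil replicate 2 or vehicle replicate 3 it was 1.04 and 1.07. The mean of the list, relative to all 12 arrays, was 1.03, -0.96 and 0.14 on the alprostadil arrays and -0.92, -1.19 and 0.50 on the vehicle arrays. Alprostadil replicate 2 was thus as low as vehicle replicates 1 and 2, and vehicle replicate 3 was above alprostadil replicate 3. Between same-numbered arrays the medians were 1.84, 0.12 and -0.35.

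Promoters of mitosis genes carry a known element, TTTGAA, the core of the cell cycle homology region bound by the DREAM complex. It stood, on either strand, in 21 of 27 windows of these genes (77.8%), against 17.9% of all windows. The 2 members of smallest p that carry it were Ndc80, a kinetochore protein, and Ube2c, a ubiquitin-conjugating enzyme that works with the anaphase-promoting complex. Their stretches lie at chr17:71526808-71526927 (minus strand) and chr2:164769843-164769962 (plus strand), with the element, here read as TTCAAA, in capitals. The Ndc80 stretch also holds the palindrome TGACGTCA, left here in small letters.
Ndc80: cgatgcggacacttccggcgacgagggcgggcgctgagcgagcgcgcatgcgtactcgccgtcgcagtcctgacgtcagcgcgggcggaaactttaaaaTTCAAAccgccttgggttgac
Ube2c: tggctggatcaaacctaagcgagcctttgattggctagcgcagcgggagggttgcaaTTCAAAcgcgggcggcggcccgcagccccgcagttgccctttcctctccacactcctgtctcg

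These genes moved together from array to array. Ndc80 read 8.35, 6.16 and 7.34 on the alprostadil arrays, against 5.99, 5.12 and 7.68 on the vehicle arrays, a difference of 1.02 (SE 0.69). Ube2c read 9.83, 7.49 and 8.70 after alprostadil and 7.45, 6.43 and 9.17 after vehicle, a difference of 0.99 (SE 0.71). Both differences were smaller without alprostadil replicate 1, at 0.49 and 0.41. In both, alprostadil replicate 1 was the highest of the 6 arrays and vehicle replicate 3 was above alprostadil replicate 3. Mki67, the proliferation marker, read 10.64, 7.01 and 9.05 after alprostadil and 7.28, 7.11 and 9.55 after vehicle, and its difference of 0.92 (SE 0.89) was 0.05 without alprostadil replicate 1.

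Genes of DNA replication lay above 0 in 24 of 25 cases, with a median of 0.23 that was 0.08 without alprostadil replicate 1, 0.07 without vehicle replicate 2 and 0.40 without alprostadil replicate 2. Rfc3, a subunit of the clamp loader, was the 1 member of 25 with separate groups, against 5.9% of all genes. It read 8.51, 8.25 and 8.30 after alprostadil, against 8.11, 7.69 and 8.18 after vehicle, with a difference of 0.36 (SE 0.14). Rrm2, the ribonucleotide reductase subunit, differed by 0.89 (SE 0.64) and Pola1, the primase-associated polymerase, by 0.30 (SE 0.19), and without alprostadil replicate 1 by 0.36 and 0.17. The 7 tested replication-dependent histones had a median of 0.40, and 0.00 without alprostadil replicate 1. Of 20 cell cycle inhibitors and p53 targets 9 lay above 0, with a median of -0.08 that was -0.02 without that array and 0.03 without vehicle replicate 1. Cdkn1c, the inhibitor p57, read 8.32, 8.50 and 8.41 after alprostadil, against 8.64, 9.46 and 8.36 after vehicle, a difference of -0.41 (SE 0.24).

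Matrix genes showed a second axis of isolates. Of 34 tested collagens and matrix genes 32 lay above 0, with a median of 0.20 and 0 called. Without alprostadil replicate 3 the median was -0.03, without vehicle replicate 2 it was 0.00, and without vehicle replicate 3 it was 0.51. Col12a1, a collagen of fibril surfaces, read 11.42, 9.30 and 11.89 on the alprostadil arrays, against 9.40, 8.58 and 10.84 on the vehicle arrays, a difference of 1.26 (SE 0.72). Replicate 3 was the highest array of both groups and replicate 2 the lowest. Col1a1, the main fibrillar collagen of skin, followed with 12.32, 12.22 and 13.19 after alprostadil and 12.22, 11.95 and 13.14 after vehicle, and differed by 0.14 (SE 0.31), or by 0.26 without alprostadil replicate 1.

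Contractile genes gave a median of -0.04, with 5 of 12 above 0. It was 0.24 without vehicle replicate 3, 0.06 without alprostadil replicate 1 and -0.14 without vehicle replicate 2. Acta2, the smooth muscle actin of myofibroblasts, read 8.53, 8.40 and 9.67 after alprostadil, against 7.93, 7.84 and 9.95 after vehicle. The replicate 3 arrays were again high in both groups, and the difference was 0.29 (SE 0.51, 95% interval -0.84 to 1.42), or 0.46 without alprostadil replicate 1. Ccn1, a matricellular target of TGF-beta and YAP, differed by 1.10 (SE 0.66), Tgfbi by 0.35 (SE 0.21) and Tgfbr1, the type 1 receptor, by 0.13 (SE 0.08). Of 16 TGF-beta targets 14 lay above 0, with a median of 0.16. Without alprostadil replicate 3 it was 9 of 16 and 0.04, and the median was 0.07 without vehicle replicate 2 and 0.45 without vehicle replicate 3. The 23 matrix proteases and inhibitors gave a median of 0.14, which was 0.00 without alprostadil replicate 3, -0.04 without vehicle replicate 2 and 0.40 without vehicle replicate 3. Plau, the urokinase gene, differed by -0.38 (SE 0.23) and Mmp16, a membrane-bound metalloproteinase, by 0.63 (SE 0.34), and without alprostadil replicate 1 by -0.19 and 0.31.

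Hyaluronan genes all lay above 0. The 9 tested genes had a median of 0.36, which was 0.20 without alprostadil replicate 1, 0.18 without alprostadil replicate 3 and 0.60 without vehicle replicate 3. Of the 9, 0 were called and none had separate groups, where 5.9% of all genes had them, and 59.4% of all genes lay above 0. Has2 read 9.97, 9.90 and 11.04 after alprostadil and 9.20, 9.39 and 10.76 after vehicle. Cd44, the hyaluronan receptor, read 10.01, 10.09 and 10.32 after alprostadil, against 9.76, 9.63 and 10.18 after vehicle, a difference of 0.28 (SE 0.16). Vcan, the hyaluronan-binding proteoglycan versican, which also marks the dermal papilla, differed by 0.36 (SE 0.24), and Cemip, which degrades hyaluronan, by 0.49 (SE 0.32). For Has2 and Cd44 the alprostadil array was higher than the vehicle array of the same number in all 3 pairs. The same was true of 2046 of the 13153 tested genes, and 1284 were lower in all 3 pairs.

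Markers of the dermal papilla and of SKPs gave a median of 0.07, with 14 of 20 above 0, where 59.4% of all genes were. The median was 0.02 without vehicle replicate 2 and 0.18 without vehicle replicate 3. Of the 20, 3 had separate groups on the higher side, Prom1 among them, against 2.78% of all genes. Nes, the intermediate filament gene that SKPs are known to express, was dim and read 6.79, 6.79 and 6.92 after alprostadil, against 7.01, 6.80 and 7.09 after vehicle. Markers of papillary, reticular and adventitial fibroblasts split, with 12 of 22 above 0 and a median of 0.08 that was -0.18 without vehicle replicate 2, -0.09 without alprostadil replicate 3 and 0.27 without vehicle replicate 3. Dpt, the dermal matrix protein dermatopontin, read 12.39, 12.50 and 13.44 after alprostadil and 11.63, 11.12 and 13.21 after vehicle, a difference of 0.79 (SE 0.46). Thy1, a surface protein of fibroblasts, read 7.87, 8.86 and 9.76 after alprostadil, against 9.36, 8.96 and 9.85 after vehicle, a difference of -0.56 that was -0.08 without alprostadil replicate 1.

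Signals between dermal cells gave medians on both sides of that of all genes. Mesenchymal growth factors had a median of 0.29 (15 of 21 above 0). It was 0.01 without vehicle replicate 2, 0.05 without alprostadil replicate 3 and 0.53 without alprostadil replicate 2 or vehicle replicate 3. BMP genes had a median of 0.08 (12 of 15) that ran from 0.03 to 0.20 when 1 of the 6 arrays was left out. Wnt genes had one of 0.06 (10 of 18) that ran from -0.08 to 0.18, turning below 0 without alprostadil replicate 3, vehicle replicate 1 or vehicle replicate 2. Notch genes had a median of -0.10, with 4 of 11 above 0, and of -0.02 without alprostadil replicate 1 or vehicle replicate 3. Jag1, a Notch ligand, differed by 0.40 (SE 0.28) and the receptor gene Notch2 by -0.30 (SE 0.14). Notch2 read 10.87, 11.15 and 10.92 after alprostadil, against 11.32, 11.44 and 11.08 after vehicle, and the groups overlapped at 1 array of each. Rspo3, a Wnt amplifier of the dermal papilla, differed by 0.56 (SE 0.43) and Dkk2, a Wnt antagonist, by 0.61 (SE 0.44).

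Metabolic and stress lists followed single arrays. All 17 sterol synthesis genes lay above 0 with a median of 0.30, but the median was 0.02 without alprostadil replicate 1 and 0.05 without vehicle replicate 2. Stard4, a sterol carrier, differed by 0.47 (SE 0.53) and the mevalonate kinase gene Mvk by 0.32 (SE 0.39), and without alprostadil replicate 1 by 0.10 and 0.04. Targets of ATF4, the factor of the amino acid response, had a median of 0.15 (17 of 20 above 0), with -0.08 without vehicle replicate 3 and 0.02 without alprostadil replicate 1. Chaperones of the endoplasmic reticulum were among the 13 of 50 lists with a median below 0, with 5 of 20 above 0 and a median of -0.05. Their median was 0.26 without alprostadil replicate 3 and -0.39 without vehicle replicate 3. The mean of that list was 0.46, 0.48 and -0.35 on the alprostadil arrays and 0.57, 0.57 and -0.41 on the vehicle arrays, so that replicate 3 was low in both groups. Ribosomal protein genes (30 tested) and lysosome genes (22 tested) had medians of 0.03 and 0.01.

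Car9, the carbonic anhydrase induced by hypoxia, read 6.67, 6.75 and 6.81 after alprostadil, against 7.11, 7.31 and 6.84 after vehicle. Its groups were separate by a narrow gap, with a difference of -0.34 (SE 0.12), and a second, dim probe set gave the other sign. The other 23 hypoxia and glycolysis genes had overlapping groups, where 5.9% of all genes did not. The median of the list was 0.07, with -0.06 without vehicle replicate 2 and -0.02 without alprostadil replicate 1. Sod2, the mitochondrial superoxide dismutase that inflammation induces, differed by 0.42 (SE 0.29).

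**Figure D4:**
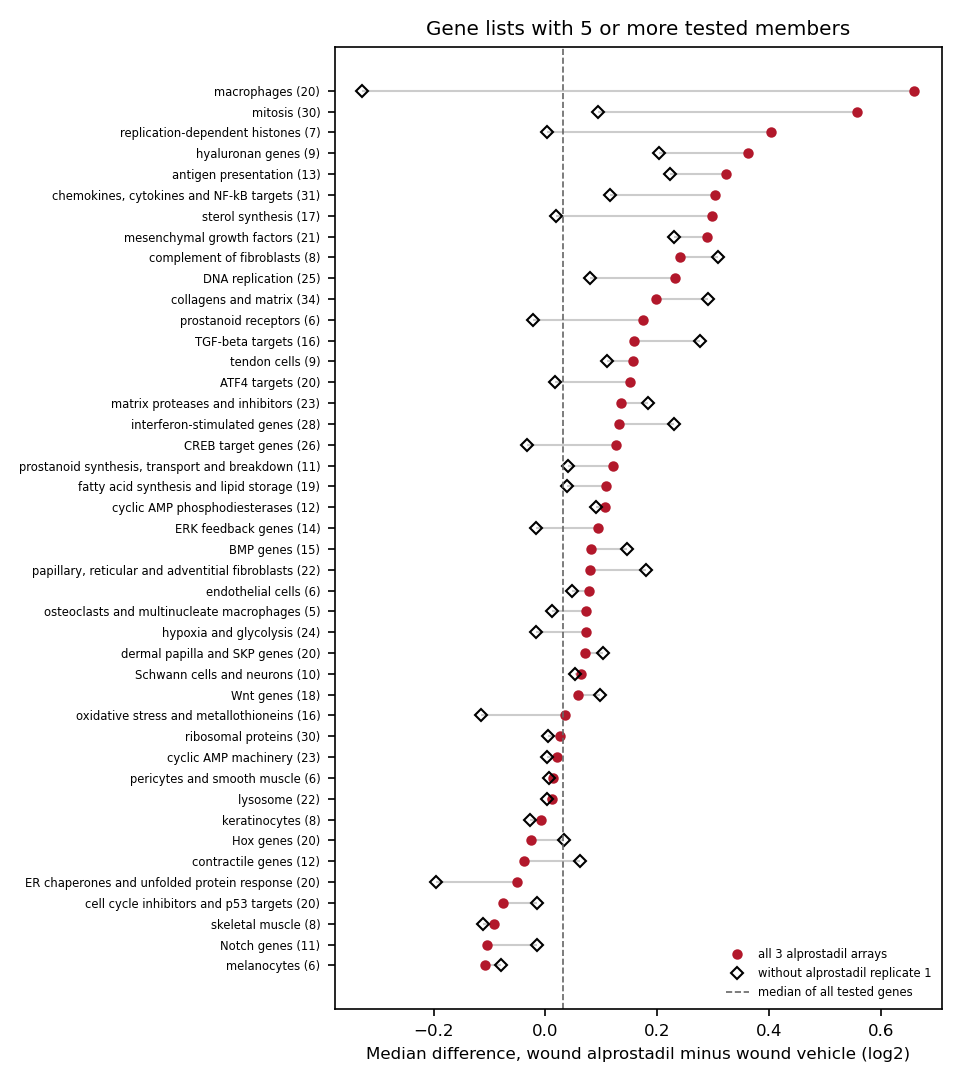
Rows are gene lists with their number of tested members in brackets, and the horizontal axis is the median difference of wound alprostadil minus wound vehicle (log2), with all arrays (red) and without alprostadil replicate 1 (open diamonds). The dashed line marks 0.03, the median of all tested genes. Macrophage genes move from 0.66 to -0.33 and mitosis genes from 0.56 to 0.09 when that array is left out, while collagens move up to 0.29.

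Inflammatory genes lay mostly above 0 without a call. Of 31 chemokine, cytokine and NF-kB target genes 25 lay above 0, with a median of 0.30. It was 0.12 without alprostadil replicate 1, 0.10 without vehicle replicate 2 and 0.56 without alprostadil replicate 2. Saa3, an acute-phase protein made by fibroblasts and macrophages, read 13.68, 13.34 and 13.96 after alprostadil, against 12.92, 13.49 and 13.34 after vehicle. Vehicle replicate 2 was above alprostadil replicate 2, and the difference was 0.41 (SE 0.18), as large without alprostadil replicate 1 (0.40). Cxcl1, a chemokine for neutrophils, read 8.61, 7.42 and 7.91 after alprostadil and 7.47, 7.21 and 7.02 after vehicle, a difference of 0.75 (SE 0.49). Il6 differed by 0.05 (SE 0.47), Csf3 by 0.47 (SE 0.26) and Cxcl16 by 0.59 (SE 0.36). The differences without alprostadil replicate 1 were 0.43 for Cxcl1, -0.31 for Il6, 0.20 for Csf3 and 0.28 for Cxcl16.

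Interferon-stimulated genes had a median of 0.13, with 25 of 28 above 0. Without alprostadil replicate 1 the median was 0.23, and without replicate 3 it was -0.08. Tap2, a peptide transporter of antigen presentation, Bst2, the antiviral tetherin, and Psmb8, a subunit of the immunoproteasome, differed by 0.33 (SE 0.16), 0.35 (SE 0.18) and 0.29 (SE 0.17). The Bst2 difference was 0.22 without alprostadil replicate 1. Antigen presentation genes had a median of 0.32 (11 of 13 above 0), which was 0.22 (9 of 13) without alprostadil replicate 1. H2-DMa, which loads peptides onto MHC class II, read 8.03, 7.23 and 7.54 after alprostadil, against 7.04, 6.99 and 7.41 after vehicle. Its difference was 0.46 (SE 0.20), or 0.24 without alprostadil replicate 1. It was the only member of 13 with an unadjusted p under 0.05 in limma, where 2.75% of all genes had one. Complement genes of fibroblasts all lay above 0 (8 of 8, median 0.24). Without alprostadil replicate 3 this was 4 of 8 with a median of 0.06, and without vehicle replicate 1 or 3 the median was 0.12 or 0.41. Among them Cfb, factor B, differed by 0.50 (SE 0.39), or 0.30 without alprostadil replicate 1, and C1ra, a protease of the classical pathway, by 0.29 (SE 0.20).

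Macrophage genes showed how far 1 array could set a mean. Of 20 tested markers 18 lay above 0, with a median of 0.66. Without alprostadil replicate 1 only 1 of 20 lay above 0 and the median was -0.33, and the medians of same-numbered pairs were 3.38, -0.90 and -0.14. Ctss, the protease cathepsin S, read 12.97, 6.18 and 7.12 on the alprostadil arrays, against 7.90, 8.66 and 7.23 on the vehicle arrays. Alprostadil replicates 2 and 3 were thus below every vehicle array, and replicate 1 was far above. Lyz2, the macrophage lysozyme, read 12.84, 7.35 and 8.83 after alprostadil and 10.13, 10.96 and 9.56 after vehicle, with differences of -0.54 with that array and -2.12 without it.

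The same held for markers that were dim elsewhere. Adgre1, an adhesion receptor of macrophages, was at 11.12 on alprostadil replicate 1, at 5.10 and 5.23 on the other alprostadil arrays and at 5.99, 7.12 and 5.26 on the vehicle arrays. Csf1r, the receptor that macrophages need, read 10.12, 6.62 and 6.78 after alprostadil, against 6.75, 6.92 and 6.76 after vehicle. Not every marker followed: Gpnmb, which fibroblast cultures can express, read 13.48, 13.32 and 13.06 after alprostadil and 13.30, 13.30 and 13.14 after vehicle. Cd163, a marker of some resident macrophages, lay between 5.51 and 5.74 on all 6 arrays. In bulk RNA, fewer cells of a type and less RNA per cell cannot be told apart, and the part of this array's macrophage signal in other results was not tested.

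Some macrophage promoters hold GAGGAAGT, a form of the site for the macrophage factor PU.1, whose gene is Spi1. It stood on either strand in 4 of 29 windows of the macrophage markers (13.8%), against 3.2% of all windows. The 2 tested members of smallest p that hold it are Cd53, a tetraspanin of leukocytes, at chr3:106790100-106790219 (minus strand), and Ctss, at chr3:95526716-95526835 (plus strand). Both carry the reverse complement ACTTCCTC, in capitals.
Cd53: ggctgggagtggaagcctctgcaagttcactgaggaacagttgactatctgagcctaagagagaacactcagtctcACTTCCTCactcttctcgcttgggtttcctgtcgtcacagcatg
Ctss: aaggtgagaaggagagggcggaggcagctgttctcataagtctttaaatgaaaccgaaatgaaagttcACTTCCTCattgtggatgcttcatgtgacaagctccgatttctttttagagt

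Spi1 itself read 9.05, 6.87 and 6.97 on the alprostadil arrays, against 7.20, 7.34 and 7.23 on the vehicle arrays. Cd53 read 12.20, 10.85 and 10.95 after alprostadil and 11.12, 11.04 and 10.90 after vehicle. Both were highest on alprostadil replicate 1 and close on the other 5 arrays. Further genes that lay farthest above the other 11 arrays on alprostadil replicate 1 were Acod1, the itaconate-making enzyme of activated macrophages, at 10.98 there, Cd93 at 11.37, C3ar1, a complement receptor, at 10.36, and Lcp1, the leukocyte actin bundler, at 11.85. Cdh1 and Mcam, markers of epithelial and perivascular cells, also peaked on that array, at 8.62 and 7.99, against 6.99 or less and 6.83 or less on the other 5 wound arrays. Their lists as a whole differed less there. Relative to all 12 arrays, the mean of the keratinocyte list was 0.22 on that array and -0.08 to 0.15 on the other wound arrays. That of pericytes and smooth muscle was 0.01, inside the span of -0.24 to 0.20 on the others.

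**Figure D5:**
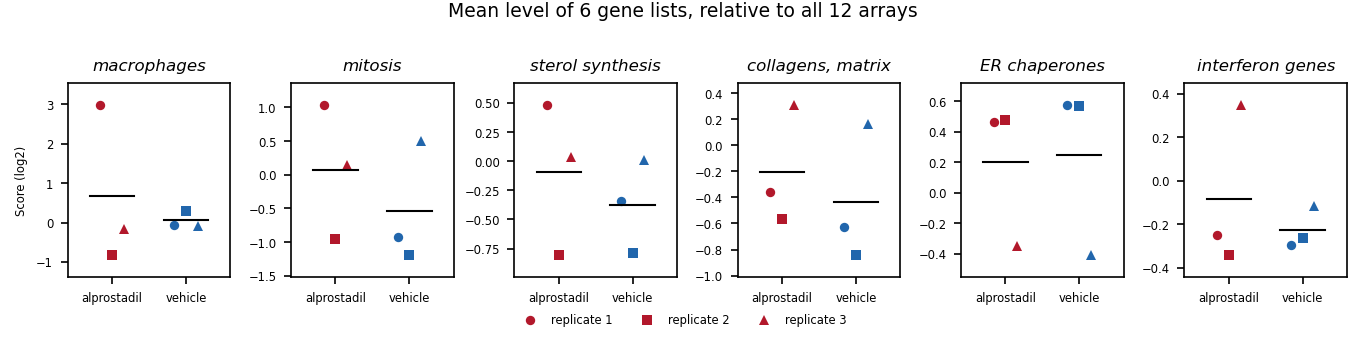
Each panel shows the mean log2 level of the tested members of a gene list, relative to the mean of all 12 arrays, on the wound alprostadil (red, left) and wound vehicle (blue, right) arrays. Alprostadil replicate 1 is alone at 2.98 for macrophage genes and highest for mitosis genes, while replicate 3 of both groups is high for collagens and low for chaperones of the endoplasmic reticulum.

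Isolates of 1 group differed widely. The range over the 3 alprostadil arrays was above 1 log2 unit at 1307 genes and over the 3 vehicle arrays at 948 genes, against 448 and 684 genes over the wound trimebutine and uninjured vehicle arrays. Over the alprostadil arrays the widest ranges belonged to macrophage genes (Ctss, Mpeg1, Cybb, Fcer1g, Tyrobp, Lyz2), to Alox5ap of leukotriene synthesis and to Ccl6, Ccl3 and Wfdc17. Over the vehicle arrays they belonged to other genes, such as Akr1c18, a steroid dehydrogenase, Frem1, a basement membrane protein, S1pr3, a sphingosine phosphate receptor, and Sfrp1, a Wnt inhibitor.

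Those genes marked replicate 3 of both groups. Akr1c18 read 9.11, 9.21 and 11.65 on the alprostadil arrays, against 7.26, 6.63 and 12.89 on the vehicle arrays. Frem1 read 8.21, 7.18 and 10.63 after alprostadil and 6.55, 6.52 and 11.22 after vehicle. S1pr3 read 8.26, 7.73 and 10.32 after alprostadil, against 10.66 on vehicle replicate 3 and 6.54 or less on the other vehicle arrays. At Akr1c18, Frem1 and S1pr3 the replicate 3 arrays were highest in their group, and vehicle replicate 3 was above alprostadil replicate 3. Ifi205 and Mme were also among the widest vehicle ranges. Their alprostadil replicate 3 read 12.91 and 12.44, above vehicle replicate 3 at 12.61 and 12.42. Ppef1, a protein phosphatase, was lowest on replicate 3 of both groups. It read 6.85, 8.31 and 5.64 after alprostadil, against 8.82, 9.53 and 5.57 after vehicle.

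Across genes, alprostadil replicate 2 resembled vehicle replicates 1 and 2 (r = 0.991 and 0.988 over 13153 genes) more than alprostadil replicate 3 (r = 0.96). Alprostadil replicate 3 was closest to wound trimebutine replicate 2 (r = 0.989) and had r = 0.986 with vehicle replicate 3. Between same-numbered arrays, 593, 90 and 124 genes differed by more than 1 log2 unit in pairs 1, 2 and 3. These correlations describe arrays, and genes are not independent replicates.

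A list of 13 genes that had differed between wound vehicle and uninjured vehicle spheres in an earlier analysis of these arrays was set beside the alprostadil values, with genes picked after their values were seen. In the fit used here, 6 of all tested genes (0.0456%) had an adjusted p under 0.05 in that contrast. Of the 13 these included 5, namely Nova1, Mmp1b, Itgb8, Art3 and C1ql1, and the other 8 had adjusted p-values of 0.0528 to 0.0752 in limma. The comparisons share the wound vehicle arrays, so a high or low vehicle array enters both. Mmp1b read 6.49, 6.62 and 7.05 after wound alprostadil, 6.07, 6.36 and 5.63 after wound vehicle and 7.83, 7.73 and 7.84 in uninjured vehicle spheres. Nova1, a neuronal splicing factor, averaged 8.41 ± 0.21 after wound alprostadil, 8.52 ± 0.06 after wound vehicle and 7.22 ± 0.28 in uninjured vehicle spheres (SD, n = 3 each). Wound alprostadil spheres thus overlapped with wound vehicle spheres for Nova1, and lay between the other groups for Mmp1b.

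Art3, a surface ADP-ribosyltransferase family gene, read 8.39, 7.89 and 8.41 after wound alprostadil, 7.88, 7.59 and 7.64 after wound vehicle and 9.08, 9.02 and 9.48 without injury. Itgb8, the integrin that activates TGF-beta, averaged 8.11 ± 0.37 after wound alprostadil, 7.59 ± 0.51 after wound vehicle and 9.38 ± 0.06 without injury. Tbx5, a limb and heart transcription factor, differed by -0.69 (SE 0.29) between wound alprostadil and wound vehicle, and by 1.76 between wound vehicle and uninjured vehicle, where its adjusted p was 0.0752. Bcl11b and Hoxc9, transcription factor genes, differed by -0.02 (SE 0.31) and -0.01 (SE 0.14) between wound alprostadil and wound vehicle, and by -2.05 and -0.98 between wound vehicle and uninjured vehicle, with adjusted p-values of 0.0604 and 0.0539 there. When alprostadil replicate 1 was left out, the Bcl11b difference lay above 0 and the Hoxc9 difference further below 0. The wound alprostadil arrays overlapped with the wound vehicle arrays at both genes.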

How the data were processed

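RNA of SKP spheres was hybridised to Affymetrix Mouse Gene 2.0 ST arrays, 12 in all. Per the submitters' processing notes, the authors made the deposited log2 values per probe set with RMA and the R package oligo; versions and settings are not stated. Of 41345 probe sets, 23521 carried 1 gene symbol, and the brightest was kept for each of 22180 genes. Genes above the array median on at least 3 arrays (13153) were tested. One linear model over the 4 groups (limma 3.58.1, R 4.3.3; 8 residual degrees of freedom) gave the contrast wound alprostadil minus wound vehicle, with two-sided p-values adjusted by Benjamini-Hochberg over all tested genes at a threshold of 0.05. On simulated data for this contrast and these 13153 genes, with 200 changed genes in each of 20 draws, 75.2% of changes of 1 log2 unit and 94.1% of changes of 2 were recovered, and 5.51% of calls were false. The simulated noise was independent between genes and arrays. It held no array like alprostadil replicate 1 and no isolate pattern shared by genes, so these rates do not cover such spread.

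Genes were named by rule: the 10 of smallest p in each direction, the 10 largest differences without overlap in each direction, listed pathway and marker genes, and genes that varied most over either group or stood highest on alprostadil replicate 1; exceptions are marked. Of 1037 list entries, 927 matched; the others are not analysed here. The members and lists were chosen with earlier results of these data known. Whether replicate numbers pair the arrays was checked by correlating the deviations from group means: same-numbered alprostadil and vehicle arrays gave r = 0.19, 0.43 and 0.62. Unlike-numbered alprostadil and vehicle arrays gave -0.57 to 0.39. With the alprostadil arrays, same-numbered wound trimebutine arrays gave 0.57, 0.22 and 0.42, and uninjured vehicle arrays 0.31, -0.27 and -0.41. The check did not settle whether the numbers pair the arrays. Precision is bounded by having 3 arrays a group. Alternatives covered the replicate block, filters, normalization, array weights and leaving out each array. Promoter windows are RefSeq's (GRCm38.p6), matched by symbol.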

Additional observations from a re-analysis of the deposited data

How the results depend on the processing

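The count of genes at an adjusted p under 0.05 in limma was 0 in every alternative run but 1: over the fits that left out 1 array it ran from 0 to 1, with Epsti1 called without wound alprostadil replicate 2 (0.0076% of genes). At thresholds of 0.1 and 0.2 it was also 0. The count at an unadjusted p under 0.05 (362) ran from 189 to 879 when 1 array was left out. It was 168 with only the 6 arrays compared and 1023 with no filter, where dim genes enter. In fits chosen after seeing the data it was 208 without the 3 arrays of lowest median and 170 with the replicate block and without alprostadil replicate 1. With the replicate block alone it was 454, and 488 over the 6 arrays; the block changed no call at the adjusted threshold. Median centring gave 193 higher and 68 lower genes, against 141 and 221; cyclic loess gave 126 and 162. Of 50 list medians, 10 changed sign without alprostadil replicate 1, 14 without vehicle replicate 2 and 5 with median centring. The cause of these shifts was not tested. Genes too dim for the filter entered only where no filter was set.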

Other observations

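Markers of cells other than fibroblasts and macrophages gave medians on both sides of 0.03, the median of all genes, mostly over few tested members. Neutrophil markers had a median of 0.66 over 2 tested members (0.24 without alprostadil replicate 1), tendon markers 0.16 over 9 (-0.06 without vehicle replicate 2) and mast cell markers -0.39 over 3 (0.07 without vehicle replicate 2). Of 16 endothelial markers on the array only 6 were bright enough to test. Of these, 4 lay above 0, with a median of 0.08, or -0.05 without alprostadil replicate 3. Flt1 had the highest difference of the 6, 0.51 (SE 0.53), and Cdh5, the cadherin of endothelial junctions, the lowest. Cdh5 read 9.20, 8.90 and 8.07 after alprostadil, against 9.98, 9.98 and 7.37 after vehicle. Replicate 3 was lowest in both groups. Melanocyte markers had 1 of 6 above 0 with a median of -0.11, and skeletal muscle markers 2 of 8 with a median of -0.09. Cpa3, the mast cell carboxypeptidase, read 5.71, 6.68 and 8.85 after alprostadil and 8.88 on vehicle replicate 2, above the other 2 vehicle arrays, so 1 array of each group was high.

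Of 10 adipocyte markers on the array, 6 lay above the array median on none of the 12 arrays, Adipoq and Plin1 among them. These 6 were not tested. The 4 tested members all lay above 0, with a median of 0.48. It was 0.32 without alprostadil replicate 1, 0.29 without alprostadil replicate 3, 0.15 without vehicle replicate 2 and 0.80 without vehicle replicate 3. Pparg, the regulator of fat cell formation, read 9.82, 8.59 and 9.44 after alprostadil, against 8.35, 8.09 and 9.67 after vehicle. Fabp4, the fatty acid carrier of fat cells and macrophages, read 9.74, 8.28 and 10.02 after alprostadil and 9.00, 7.81 and 9.62 after vehicle. Vehicle replicate 3 lay inside the alprostadil range for both, and neither passed the test. Hox genes, which record body position, had 6 of 20 above 0 and a median of -0.03, which turned to 0.03 without alprostadil replicate 1 and was -0.12 without alprostadil replicate 3. Hoxa13 was lower without overlap, at 6.38, 6.49 and 6.54 after alprostadil, against 6.72, 6.76 and 6.66 after vehicle, a difference of -0.24 (SE 0.12, adjusted p 0.998 in limma). Hoxa13 was dim: every alprostadil value lay below its own array's median, and on the vehicle arrays only replicate 2 lay above it.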
